A study of Homo sapiens with 9 samples.

Results

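The p300 peaks described here lie on chromosome 11 of hg19 with their midpoint from 60 to 78 Mb, a stretch of 18 Mb around the band 11q13. They were chosen by position alone, and 284 of the 19861 deposited peaks qualified. PC3 cells, a line from a metastatic human prostate carcinoma, were given no drug (untreated) or 30 µM MnTE-2-PyP for 24 hours (treated; the labels also write T2E, and their µm was read as micromolar). MnTE-2-PyP is a manganese porphyrin that mimics superoxide dismutase. Both groups received 20 Gy of radiation and were fixed in 1% formaldehyde 1 hour later, so no unirradiated cells are compared. There were 2 untreated p300 libraries, whose peak lists are called U1 and U2 here, and 3 treated ones, T1, T2 and T3. The submitters call them biological replicates, and all come from 1 cell line. The labels do not say whether the replicates were separate cultures. A p-value here therefore sets a group difference against reassignments of these lists, whose spread may be partly technical.

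The coactivator p300 acetylates histones and is recruited by transcription factors to promoters and enhancers of active genes. The stretch is known to hold many genes, among them NEAT1 and MALAT1, which make abundant long noncoding RNAs of the nucleus, and CCND1, which makes cyclin D1. NEAT1 RNA is the scaffold of paraspeckles, MALAT1 RNA gathers at nuclear speckles, and cyclin D1 drives cells toward DNA synthesis with its partner kinases. No annotation or sequence of hg19 was used here, so the gene density was not checked and peaks are named by position, counted from 1.

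Over the whole genome, U1 had 2313 peaks, U2 2039, T1 4922, T2 10059 and T3 528. Read depth is unknown, since the lists carry no read numbers, so yield and binding cannot be told apart in a number of peaks. U1 and T1 share a part of their peak names, as do U2 and T3. It is called a run identifier here, though the labels do not say what it stands for. The narrowest peak measured 199 bp in U1, 332 in U2, 193 in T1, 291 in T2 and 200 in T3.

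Within the band p300 peaks were found with and without the drug, and the difference in their number was smaller than the spread between treated lists. U1 and U2 held 16 and 30 of them. T1, T2 and T3 held 21, 217 and 0, so the highest and the lowest number both came from treated cells and the groups overlapped. The means were 79.3 ± 119.7 treated (SD, n = 3) and 23.0 ± 9.90 untreated (SD, n = 2), a log2 ratio of 1.79 with an exact two-sided permutation p of 1.0. The smallest p that 2 against 3 lists can give is 0.2. Without T2 the log2 ratio was -1.13.

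Taken as a share of its list, the band held 0.692% of U1 (95% Wilson interval 0.426 to 1.12%) and 1.47% of U2 (1.03 to 2.09%). It held 0.427% of T1 (0.279 to 0.651%) and 2.16% of T2 (1.89 to 2.46%). T3 had 0 of 528 peaks here, which allows a share of up to 0.568%. These intervals and this limit cover counting error only. The band makes up 0.601% of the genome span, so the intervals lay above the span in U2 and T2 and included it in U1 and T1. For T3 the limit from 3 peaks, 0.568%, lies just under the span, and the upper bound of the Wilson interval, 0.722%, just over it. The mean share was 1.08% ± 0.551 untreated (SD, n = 2) and 0.861% ± 1.14 treated (SD, n = 3), a difference of -0.22 points (exact two-sided permutation p = 0.8). This difference was smaller than the spread within either group, and it became 0.21 without T3 and 0.17 without U2. In the pairs with a shared run identifier the share was lower in the treated list both times, with differences of -0.265 and -1.47 points, 1 list per group and no test. The lists with the largest shares were also the lists with the widest narrowest peak, and the part of this in the result was not tested. The order of the shares also changed when each list was kept at its 528 highest-scoring peaks. T2, at 0.947%, then lay below U2 at 1.52% and T1 at 1.14%, while U1 held 0.758% and T3 0%.

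Against the rest of its own chromosome the band was dense in both groups. It makes up 13.4% of the span of chromosome 11 and held 31.4% of that chromosome's peaks in U1 (95% Wilson interval 20.3 to 45.0%) and 39.0% in U2 (28.8 to 50.1%). The values were 28.8% in T1 (19.7 to 40.0%) and 41.7% in T2 (37.6 to 46.0%). Each of these 4 intervals lies above the band's part of the span. Per Mb, the band carried 2.97, 4.14, 2.62 and 4.65 times the peaks of the rest of the chromosome in U1, U2, T1 and T2. T3 had only 5 peaks on chromosome 11, none of them in the band, and a share of 0 of 5 has an interval reaching 43.4%. The rest of chromosome 11 was sparse, at 0.243 to 0.773 times the density of the genome over the 5 lists, and ranked T2 first, then U2, U1, T1 and T3, as the band did.

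Other parts of the genome ranked the lists differently, as a description without a test. Chromosome 19, known for its many genes, took 4.28% of U1, 5.44% of U2, 4.57% of T1, 5.27% of T2 and 6.44% of T3. So T3 had the largest share there and none in the band. Between 75 and 85 Mb of chromosome 10 lay 6.83% of U1, 4.02% of U2, 9.18% of T1, 2.48% of T2 and 2.46% of T3. There U1 and T1 were the high lists, while in the band they lay below U2 and T2.

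**Figure D1:**
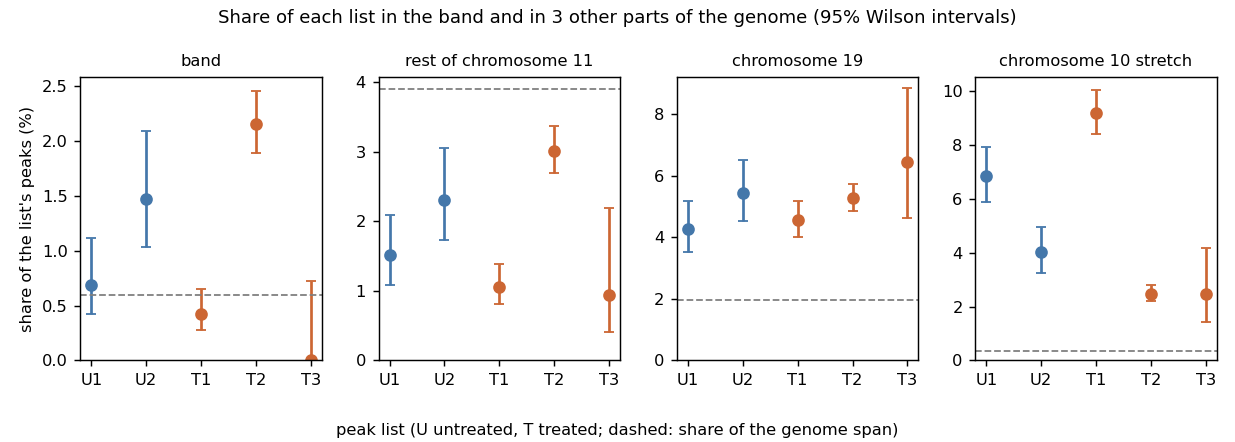
Share of each list's peaks (%, with 95% Wilson intervals for counting error) in the band, the rest of chromosome 11, chromosome 19 and the chromosome 10 stretch from 75 to 85 Mb; dashed lines are each part's share of the genome span. In the band, U2 at 1.47% and T2 at 2.16% lie above the dashed 0.601%, and T3 is at 0.

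Along the band, peaks were spread over most of its length. Of the 18 bins of 1 Mb, U1 had a peak in 11, U2 in 14, T1 in 12 and T2 in 18. Bins with more peaks than the mean 1 Mb bin of the genome numbered 11 for U1, 14 for U2, 7 for T1, 16 for T2 and 0 for T3. Over 3013 bins of the genome the same was true of 32.7% for U1, 30.4% for U2, 20.4% for T1, 25.4% for T2 and 9.43% for T3. The mean per Mb in the band was 0.889 for U1, 1.67 for U2, 1.17 for T1, 12.1 for T2 and 0 for T3. These numbers move with the length of the list. Relative to the density of its own list over the genome span, the band stood at 1.15 in U1 and 2.45 in U2. The same ratio was 0.710 in T1, 3.59 in T2 and 0 in T3.

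The bin from 70 to 71 Mb held the most peaks, 30 over all lists, of which 28 came from T2, 1 from U2 and 1 from T1. Without T2 only 2 remained there. This bin of T2 exceeded 98.8% of the bins of the genome in that list, whose mean was 3.34 peaks. The bin from 61 to 62 Mb came next with 24 peaks, 2 and 4 of them untreated and 2 and 16 from T1 and T2. The bin from 71 to 72 Mb held 22, as 2 and 3 untreated and 2 and 15 treated. These latter bins had peaks in all of the 4 lists with members, with 2 to 4 per list outside T2.

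The fewest peaks, 2 each, lay in the bins from 62 to 63 Mb and from 77 to 78 Mb. In the former, U2 had a peak at 62073477 to 62073808 and T2 one at 62882589 to 62883594. The latter of these, at 1006 bp, was the widest peak of the band and was singled out after its width was seen. The bin from 77 to 78 Mb held peaks of T2 only. By stretches of 6 Mb, the lowest stretch held 43.8% of the members of U1, 43.3% of U2, 38.1% of T1 and 35.0% of T2. The middle one held 37.5%, 33.3%, 38.1% and 43.8% in the same order. The uppermost held 18.8%, 23.3%, 23.8% and 21.2% in the same order, the smallest part in each of these 4 lists.

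**Figure D2:**
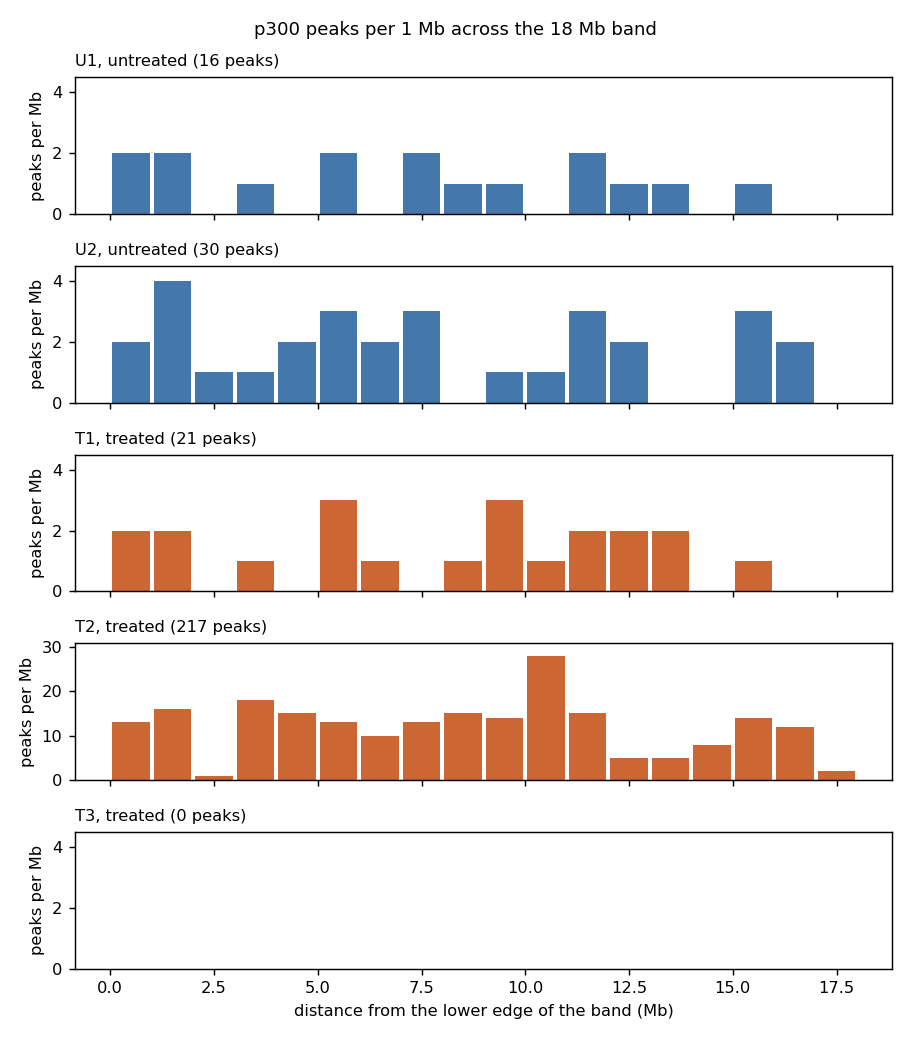
Number of p300 peaks per 1 Mb (y axis, scaled per panel) against the distance from the lower edge of the band in Mb (x axis), one panel per list, untreated in blue and treated in orange. T2 has 1 to 28 peaks per bin, the other 3 lists with members have 0 to 4, and T3 has none.

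The edges were set by position, and a strong peak lay just outside. A region at 59292299 to 59292805, 707 kb below the lower edge, was held by all 5 lists, with scores of 24.5 and 27.8 untreated and 47.4, 34.9 and 9.24 treated. It was the last peak of T3 before a stretch without any up to 85194958. Just inside the lower edge lay a region at 60218616 to 60219096. At the upper edge the nearest peaks were both of T2, at 77557487 to 77557782 inside (score 7.08) and at 78176180 to 78176470 outside (score 5.94).

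In the window of NEAT1 and MALAT1, from 65.1 to 65.3 Mb, 3 of the 5 lists held a peak. U1 had one at 65217436 to 65217638 with a score of 12.2, at percentile 75.4 of its list, where percentile 100 is the highest score. T1 had one at 65217431 to 65217625 with a score of 9.07, at percentile 68.3. These peaks coincide, so this site was held with and without the drug by the lists that share a run identifier. T1 held a further peak at 65299495 to 65299727 with a score of 14.4, at percentile 88.9. T2 held others, at 65147486 to 65147878 (score 4.56, percentile 38.3) and at 65184724 to 65185021 (score 7.08, percentile 82.4). No peak in this window was shared between treated lists, and that of U1 was the only untreated one.

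U2 and T3 held no peak in that window. The nearest of U2 was at 65385268 to 65385599, 185 kb from the window's centre, with a score of 3.44. Within 1 Mb of the centre U1 held 2, U2 5, T1 3, T2 26 and T3 0 peaks. T2 held most of these, as it held 217 of the 284 peaks of the whole band.

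Around CCND1, within 100 kb of the position 69.46 Mb, a single peak was found in all 5 lists. It belonged to U1, at 69474387 to 69474588, 14.5 kb above that position, with a score of 6.47 at percentile 32.0. It was 202 bp wide, near the narrowest of its list, and no other list held it. The nearest peak of U2 was 326 kb away at 69785810 to 69786262, a site that T2 also held at 69785858 to 69786154. Their scores were 3.82 and 3.93, at percentiles 16.8 and 21.7, so both were low in their lists.

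The treated lists had no peak within 100 kb of the CCND1 position. T2 came closest, at 69569681 to 69569971, 110 kb away, with a score of 3.94, so that it lay just outside a limit chosen here. T1 had its nearest peak 361 kb away, at 69821132 to 69821457, with a score of 5.50. Within 1 Mb U1 and U2 held 1 each, T1 held 4, T2 36 and T3 0. The single peak at CCND1 rests on 1 of 2 untreated lists, and no test was run on it. With each list kept at its 528 best peaks, 0 lists had a peak in either gene window.

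**Figure D3:**
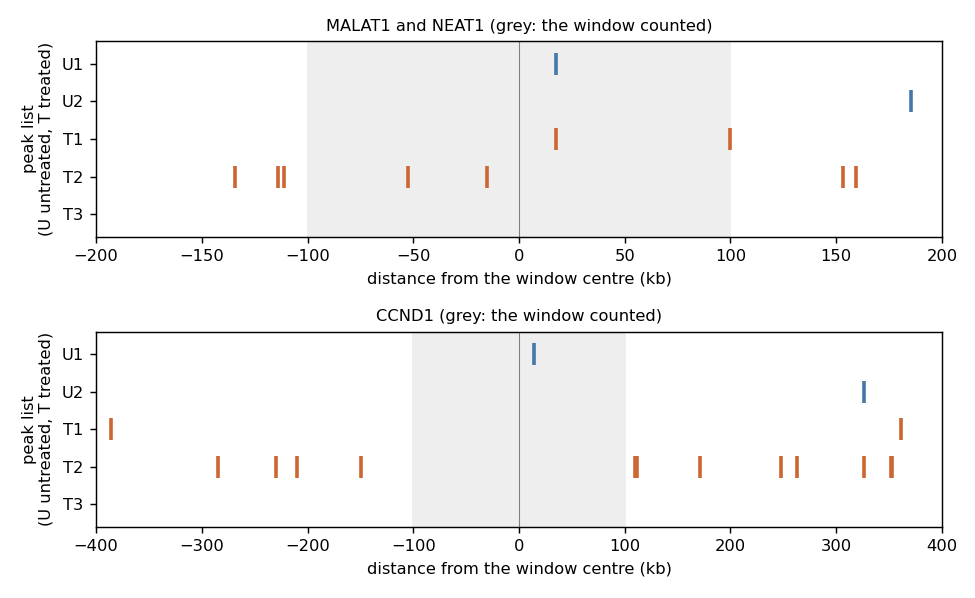
Position of each p300 peak (tick) by list (y axis) as the distance in kb from the centre of the NEAT1 and MALAT1 window (top) and from the CCND1 position (bottom); grey marks the window counted. U1 has the only peak in the CCND1 window, and it and T1 coincide in the other.

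Merging of peaks with at least 1 bp in common gave 263 regions in the band out of 16701 in the genome. No region of the band was held by both untreated and no treated list, a pattern shown by 31 regions or 0.186% of the genome's. None was in all 3 treated lists and neither untreated one, against 0.24% of the genome's regions, or by every list, against 0.886%. The latter patterns cannot occur here, because T3 has no member. At least 2 treated lists and neither untreated one held 2 regions (0.760%), against 2.93% in the genome. In the band this can only be T1 with T2, and 2.25% of the genome's regions were held by T1 and T2 alone. In all, 14 regions (5.32%) were in 2 or more lists, against 10.4% in the genome, a share that also counts regions shared with T3. The remaining 249 regions were each in a single list, and 206 of them were peaks of T2.

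The strongest shared site lay at 61734987 to 61735514 and was held by 4 lists. Its score was 27.1 and 24.9 in U1 and U2 and 30.6 and 42.8 in T1 and T2. It was the highest-scoring peak of the band in each of these lists, at percentiles 92.3, 99.0, 97.3 and 99.5. The scores come from separate lists on an unnamed scale and are not compared as levels. The percentiles of the groups overlap here, and T3 held no peak at this site. A second region in the same 4 lists, at 71387578 to 71388043, scored 9.99 and 7.42 untreated and 13.7 and 29.6 treated. Its percentiles were 65.6 and 77.6 untreated and 87.7 and 99.0 treated. These 2 regions make up 0.760% of the band's regions, and 0.719% of the genome's had this pattern.

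Regions in 3 lists numbered 3. The one at 66450432 to 66450800 was held by U2, T1 and T2, with scores of 10.6, 26.4 and 16.0 at percentiles 92.8, 96.2 and 97.2. The one at 75598133 to 75598479 was held by U1, U2 and T2, with scores of 17.9, 9.42 and 8.21 at percentiles 86.0, 89.9 and 88.8. Both thus ranked high wherever they were found. The third, at 60218616 to 60219096, did not: it scored 3.43 and 5.23 in U1 and U2 and 18.5 in T1. Its percentiles were 1.08, 49.9 and 92.7, the widest span of ranks among the regions in 3 or more lists. Each of these 3 patterns made up 0.380% of the band's regions. In the genome the shares were 0.443%, 0.0898% and 0.120%, in the order above.

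The 2 regions held by treated lists alone were at 63453774 to 63454071 and at 68893410 to 68893975. The former scored 15.2 in T1 and 3.91 in T2, at percentiles 89.9 and 21.0. The latter scored 7.18 and 4.89, at percentiles 47.7 and 47.0. Neither was among the high-ranked peaks of both lists. A further 7 regions joined 1 untreated and 1 treated list. U2 and T2 held 3 (1.14%, against 0.850% of the genome's regions). U1 and T2 held 2 (0.760% against 0.994%), and U1 and T1 held 2 (0.760% against 0.976%). The last 2 were the site in the NEAT1 and MALAT1 window and one at 72269816 to 72270023, with scores of 16.0 and 16.7.

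By list, 8 of 16 members of U1 overlapped a peak of another list, against 42.9% of its peaks outside the band. In U2 it was 8 of 30 (26.7%) against 33.3%, and in T1 8 of 21 (38.1%) against 27.7%. The 95% Wilson intervals of the members, 28.0 to 72.0% in U1, 14.2 to 44.4% in U2 and 20.8 to 59.1% in T1, included the value outside. In T2 it was 11 of 217 (5.07%, interval 2.85 to 8.85%), below the 14.3% outside. In the rest of chromosome 11, 6.27% of the T2 peaks were shared, a value inside the interval of the band. The untreated mean of 38.3% ± 16.5 (SD, n = 2) and the treated mean of 21.6% ± 23.4 (SD, n = 2) differed by -16.8 points (exact two-sided permutation p = 0.667). T3 has no members and drops out, which leaves 0.333 as the smallest possible p, and without T2 the difference was 1.49 points.

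**Figure D4:**
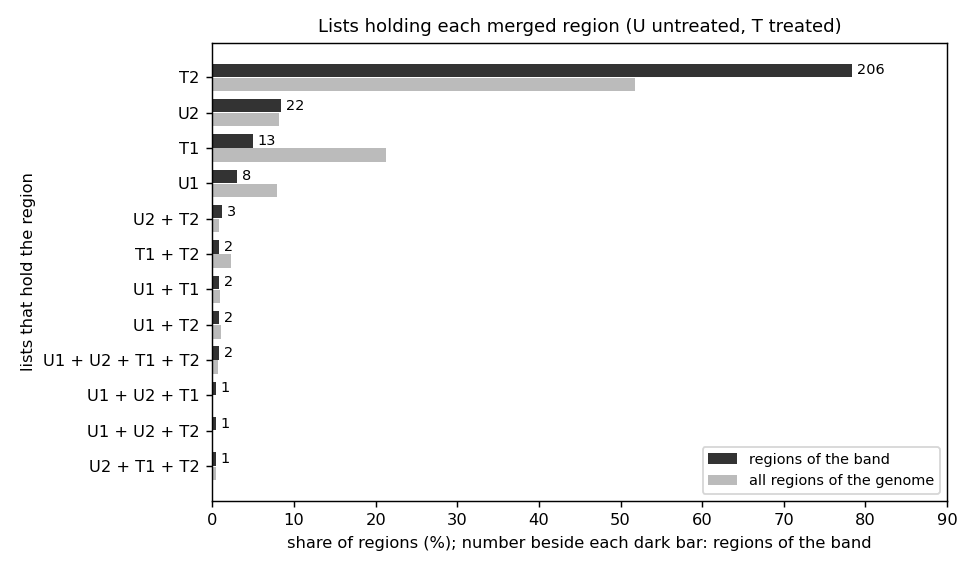
Share of merged regions (%, x axis) held by each combination of lists (y axis; U untreated, T treated), for the band in dark and the genome in grey bars, with the number of band regions beside each dark bar. T2 alone holds 206 of the 263 regions of the band, or 78.3%, against 51.7% in the genome.

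Within their own lists the members covered nearly the whole range of ranks. The median percentile was 49.0 in U1, 43.7 in U2, 68.3 in T1 and 39.9 in T2. The rest of each list had medians from 47.0 in T2, where many scores are tied, to 50.3 in U2. T1 was thus the list whose members ranked highest, with 10 of its 21 (47.6%) above percentile 75. In the other lists with members 5 of 16 (31.25%), 8 of 30 (26.7%) and 37 of 217 (17.1%) lay above it. By definition about 25% of a whole list lies there, apart from ties. In the rest of chromosome 11 the median percentile was 63.4 in U1, 63.0 in U2, 55.2 in T1 and 47.0 in T2. The band's median thus lay below that of the rest of its chromosome in U1, U2 and T2 and above it in T1. The treated mean of 54.1 ± 20.1 (SD, n = 2) and the untreated mean of 46.3 ± 3.71 (SD, n = 2) differed by 7.79 (exact two-sided permutation p = 1.0). Without T1 the difference was -6.45 and without T2 it was 22.0.

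Members that another list shared ranked above those that no other list shared. The medians were 79.5 against 24.2 in U1, 63.7 against 34.8 in U2, 90.7 against 47.7 in T1 and 79.9 against 38.7 in T2. The direction was the same in these 4 lists, which share the regions compared and are not independent. Shared members nonetheless reached down to percentile 1.08 in U1 and 6.04 in T2. This contrast was not computed outside the band, so it is not shown to be particular to it.

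**Figure D5:**
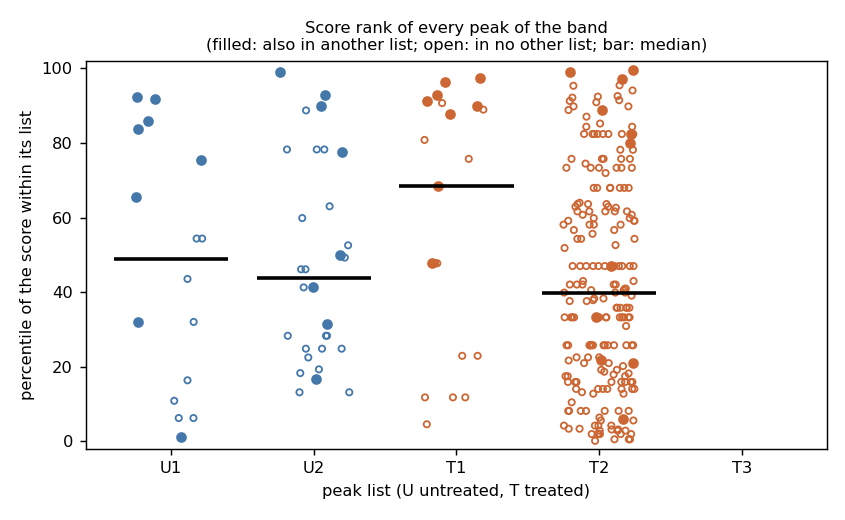
Percentile of the score within its list (y axis, 100 is highest) for every peak of the band, by list (x axis); filled points overlap a peak of another list, open points do not, and bars are medians. Medians lie at 49.0, 43.7, 68.3 and 39.9, and T3 has no point.

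The median member was narrower than the rest of its list in U1, U2 and T2 and wider in T1. It measured 203 bp in U1 against 235 outside the band, 362 in U2 against 376, 246 in T1 against 233 and 316 in T2 against 323. The treated mean of 281 ± 49.5 bp (SD, n = 2) and the untreated mean of 282.5 ± 112.4 bp (SD, n = 2) differed by -1.5 bp (exact two-sided permutation p = 1.0). The difference was 78 bp without U2, -81 bp without U1, 33.5 bp without T1 and -36.5 bp without T2. Widths of 500 bp or more were found in 6 of 30 members of U2 and 24 of 217 of T2, and in none of U1 or T1. Outside the band such widths made up 20.7% and 11.6% of the former lists and 3.87% and 4.51% of the latter.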

How the data were processed

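The submitters' processing notes name hg19 and MACS2. Which aligner, which version and cutoff of MACS2 and which input belonged to each library was not given in the sources used here, and the 4 input samples were not analysed here. The authors deposited 1 peak list per p300 library, so replicates were not pooled, with a position and a score per peak. The score is the authors' own value per peak on an unnamed scale and was used to describe, rank or filter peaks within a list. The exception is the score minimum, where 1 cutoff, the pooled median, was applied to all lists. It kept 1726, 785, 3468, 3617 and 335 peaks of U1, U2, T1, T2 and T3, so the lists were cut unequally. Percentiles are average ranks within the full list.

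A peak belonged to the band by its midpoint. Groups were compared by exact permutation, two-sided, using every assignment of 2 lists to the untreated group. The length of a chromosome was the distance between its outermost peaks. The window of NEAT1 and MALAT1 and the CCND1 position come with the rule that defines the band, while the 100 kb on either side of that position was chosen here. Named regions are those in 3 or more lists, in both untreated or in 2 or more treated lists alone, those in the gene windows or each list's nearest to them, each list's highest-scoring member, and the 3 bins with most peaks and those with fewest. Other regions, such as those at the edges and the second site of U1 and T1, were chosen after their values were seen. The planned count of peaks at gene starts was not run. The members and lists were chosen with earlier results of these data known. Alternatives were a score minimum, equal list lengths, other overlap rules and band edges, group medians, pairings and leaving out lists. Counting was tested on simulated data. Python 3.11.15, numpy 2.4.6, pandas 2.3.3, scipy 1.17.1 and matplotlib 3.10.9 were used.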

Additional observations from a re-analysis of the deposited data

Results flagged for a closer look

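In the pairs of lists that share a run identifier, the number of band peaks moved in opposite directions. T1 held 5 more than U1, with 21 against 16, and T3 held 30 fewer than U2 (-30), with 0 against 30. Each pair holds 1 list per group, so this difference was not tested. The lists differ in length, with 2313 peaks in U1, 4922 in T1, 2039 in U2 and 528 in T3. As a share of its list the band was lower in the treated list of both pairs, with differences of -0.265 and -1.47 points.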

How the results depend on the processing

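No comparison here could pass 0.05, so settings could change only directions and counts. Among the recomputed values 114 held their direction or moved by at most 1.5-fold, 27 counts moved by more and 12 turned sign. Part of the 114 could not have changed, so this tally does not measure how stable the results are. Regions in every list, for example, must number 0 wherever T3 is kept. The percentile, width and sharing differences cannot change when T3, which has no member, is left out. Leaving out 1 list gave log2 ratios of peak numbers from -1.13 to 2.37, share differences from -0.87 to 0.21 points, percentile differences from -6.45 to 22.0, width differences from -81 to 78 bp and sharing differences from -29.1 to 1.49 points. Regions ran from 0 to 22 in all untreated lists alone, 0 to 2 in all treated lists alone, 0 to 3 in 2 or more treated lists alone, 7 to 14 in 2 or more lists and 0 to 2 in every list, since fewer lists then define each set. Lists with a peak ran from 2 to 3 in the NEAT1 and MALAT1 window and from 0 to 1 in that of CCND1, and peaks from 70 to 71 Mb from 2 to 30. Keeping each list at its 528 best peaks left 4, 8, 6, 5 and 0 members in U1, U2, T1, T2 and T3, and the log2 ratio was -0.71. Then 1 region was in both untreated lists alone, 0 in 2 or more treated lists alone and 5 in 2 or more lists, and 0 lists had a peak in either gene window and 0 peaks lay from 70 to 71 Mb. Dropping peaks under the pooled median score of 5.90 left 0 regions in 2 or more treated lists alone, 8 in 2 or more lists and 8 peaks from 70 to 71 Mb. Requiring 50% overlap left 1 region in 2 or more treated lists alone. Group medians turned the log2 ratio to -0.13. Same-numbered samples share nothing in the labels beyond the number, so they were not taken as pairs; with the replicate block the share difference was 0.21 points and the log2 ratio 1.62. Pairing by run identifier gave -0.87 points for the share; no mean over both pairs could be formed for the log2 ratio, percentile, width or sharing, since T3 has no member. Leaving out T2 and T3 together, chosen after seeing the data, gave -0.13 for the log2 ratio, 1.49 points for sharing and 1, 15, 0, 7 and 3 regions in the order above, with 2 peaks from 70 to 71 Mb. Membership by any overlap, joining peaks within 500 bp and a band narrowed by 1 Mb at both ends changed no direction and moved no count past 1.5-fold. Read depth is unknown and limits what an absent peak can mean.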

Other observations

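Members of T2 lay closer together than those of the other lists with members. Of its 217 peaks in the band 69 lay within 10 kb of another, with a median distance to the nearest of 16.4 kb, while none of the 16, 30 and 21 members of the other lists did. Their median distances were 352, 185 and 214 kb, in lists with fewer members. Distances were not computed for T2 peaks outside the band, so closeness is not shown to be particular to it.

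Scores in T2 were often tied. Its 217 members carried 78 different scores, and the commonest, 3.94, stood at 14 of them (6.45%), against 5.68% of the list outside the band.

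The profiles over the 18 bins resembled each other most between U1 and T1, with a Pearson r of 0.63 and a Spearman rho of 0.66, and between the untreated lists, with 0.59 and 0.57. The other pairs had r from 0.19 to 0.29. These describe bins with few peaks that share the same stretch of genome.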
